A study of Triticum aestivum with 24 samples.

Results

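The 3 homoeologues of INDETERMINATE DOMAIN 5 (IDD5) of bread wheat were followed across RNA-seq libraries of the elongating leaf sheath. They were chosen by identifier, as IDD5-A1 (TraesCS2A02G188400), IDD5-B1 (TraesCS2B02G218900) and IDD5-D1 (TraesCS2D02G199300), 1 gene from each of the A, B and D subgenomes, among the 107891 gene models of the table. All 3 were among the 63241 genes that reached 0.5 TPM in at least 4 libraries and were tested. TPM is the abundance of a gene's transcripts per length, scaled to the same total in each library, so levels of different genes can be compared within a library.

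Seedlings of the wild-type cultivar Cadenza, of the idd5 mutant and of Rht-D1b, a near-isogenic line, were treated at 7 d with water or with 100 µM GA3, and all genotypes share the Cadenza background. Leaf sheath from the grain up to the coleoptile tip was taken 8 h later. With 4 biological replicates of each genotype under each treatment there were 6 groups and 24 libraries. The idd5 mutant is 1 line that combines chemically induced mutations in all 3 homoeologues. IDD5-A1 and IDD5-D1 carry premature stop codons downstream of the PAM domain, and IDD5-B1 carries a change at the splice donor of its first intron. At a high rate this change leaves the intron in IDD5-B1 transcripts, which then hold a premature stop codon as well. The mutant was compared with Cadenza, not with its wild-type sister line, so other induced mutations left in the line cannot be told apart from those in IDD5. Rht-D1b is a dominant allele of RHT-D1, which encodes a DELLA protein, and no change in IDD5 was described for this line.

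IDD5 encodes a zinc finger transcription factor of the INDETERMINATE DOMAIN family, whose orthologue in barley is SEMI-DWARF 3 (SDW3). Through its PAM domain it binds DELLA proteins, the repressors of growth that wheat makes from the RHT1 genes. Gibberellin bound to its receptor GID1 triggers the degradation of DELLA proteins, and the protein of Rht-D1b escapes it, which gives the semi-dwarf stature. In Arabidopsis, relatives of IDD5 such as GAF1 bring DELLA proteins to the promoters of gibberellin genes. What is measured here is transcript abundance, and neither the proteins nor their binding was measured.

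In water-treated Cadenza the homoeologues were expressed at similar, moderate levels, with IDD5-D1 somewhat above the others. IDD5-A1 had 8.98, 9.74, 9.32 and 8.20 TPM in replicates 1 to 4. IDD5-B1 had 8.58, 9.15, 9.25 and 10.75 TPM in the same libraries. IDD5-D1 had 12.09, 12.04, 11.52 and 10.66 TPM, and in 3 of these 4 libraries it was above every value of IDD5-A1 and IDD5-B1. The group means were 9.06 ± 0.65 TPM for IDD5-A1, 9.43 ± 0.93 TPM for IDD5-B1 and 11.6 ± 0.66 TPM for IDD5-D1 (SD, n = 4). Of the 63241 genes tested, 70.1% had a lower mean TPM in this group than IDD5-A1, 71.1% a lower one than IDD5-B1 and 76.0% a lower one than IDD5-D1, against a median of 4.38 TPM.

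In idd5 the levels of IDD5-A1 and IDD5-D1 stayed within the range of Cadenza or close to it, and IDD5-B1 was the one homoeologue that stood apart. In water-treated idd5, IDD5-B1 had 35.68, 34.93, 36.75 and 36.18 TPM, and in GA3-treated idd5 it had 35.50, 35.15, 30.48 and 35.63 TPM. In GA3-treated Cadenza it had 8.97, 9.13, 9.36 and 9.52 TPM. The lowest of the 8 idd5 libraries was thus far above the highest of the 8 Cadenza libraries, and the groups did not overlap with either treatment. The ratio of the means was 3.80 with water and 3.70 with GA3.

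In limma's test the difference of IDD5-B1 between idd5 and Cadenza was 1.88 on the log2(TPM + 0.5) scale with water (standard error 0.07, 95% interval 1.73 to 2.03, Benjamini-Hochberg adjusted p = 3.59e-13). With GA3 it was 1.83 (standard error 0.07, 95% interval 1.68 to 1.98, adjusted p = 3.90e-13 by the same test). Among the 63241 genes tested, 4.73% were called at an adjusted p of 0.01 between idd5 and Cadenza with water and 9.41% with GA3. Of the 3 homoeologues, 1 was called in each. IDD5-B1 had the smallest p of all genes in both comparisons, and it stood in place 116 by the size of the rise with water and in place 115 with GA3. TPM of a gene does not tell spliced transcripts from those that keep the intron, so this rise says nothing on how much functional IDD5-B1 transcript was present. The authors examined the splicing of this intron separately, by amplicon sequencing, and reported a high rate of aberrant splicing from the mutation. In bulk tissue, more RNA per cell and more cells that express the gene cannot be told apart.

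**Figure D1:**
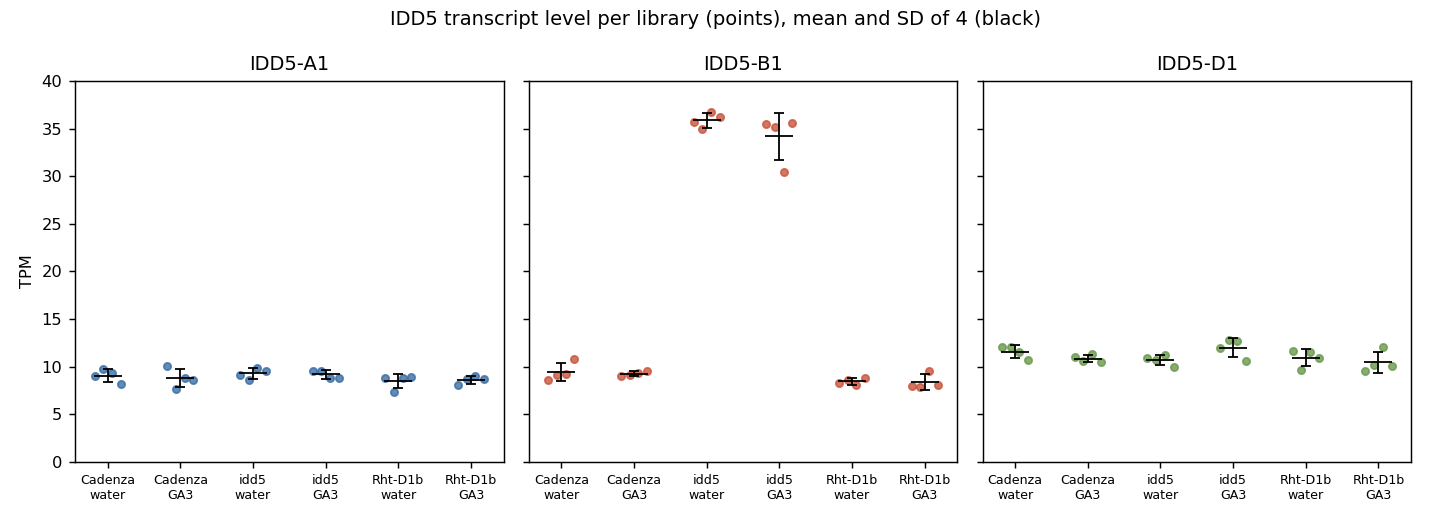
TPM of IDD5-A1, IDD5-B1 and IDD5-D1 (panels) by genotype and treatment. Each point is 1 library, and the black bar with whiskers is the mean and SD of 4 libraries. The IDD5-B1 points of idd5 lie between 30.48 and 36.75 TPM, and all other points of the 3 homoeologues lie at or below 12.80 TPM.

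IDD5-A1 and IDD5-D1 in idd5 overlapped with Cadenza under both treatments. IDD5-A1 had 9.16, 8.56, 9.80 and 9.58 TPM in idd5 with water and 9.52, 9.57, 8.82 and 8.77 TPM with GA3. In Cadenza with GA3 it had 10.08, 7.68, 8.80 and 8.63 TPM. The idd5 values fell inside the Cadenza range of the same treatment in every library but replicate 3 of water, which at 9.80 TPM was just above the highest of Cadenza, 9.74 TPM. Its log2 difference was 0.03 with water (95% interval -0.14 to 0.20, adjusted p = 0.86 from limma's test) and 0.06 with GA3 (95% interval -0.11 to 0.23, adjusted p = 0.688).

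IDD5-D1 had 10.88, 10.66, 11.20 and 10 TPM in idd5 with water and 11.93, 12.80, 12.68 and 10.55 TPM with GA3. In Cadenza with GA3 it had 10.98, 10.55, 11.29 and 10.51 TPM. With water, 1 idd5 library, replicate 4, lay below the whole Cadenza range and the others inside it or at its lower edge. With GA3, 3 idd5 libraries lay above the Cadenza range, and replicate 4 lay near its lower end. The log2 difference was -0.11 with water (95% interval -0.27 to 0.05, adjusted p = 0.438 from limma's test) and 0.14 with GA3 (95% interval -0.03 to 0.30, adjusted p = 0.273). For both IDD5-A1 and IDD5-D1, the intervals exclude a difference of the size of that of IDD5-B1.

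The summed TPM of the homoeologues differed between idd5 and Cadenza by about as much as IDD5-B1 did alone. The sum was 30.07 ± 0.61 TPM in water-treated Cadenza and 55.8 ± 1.47 TPM in water-treated idd5 (SD, n = 4). With GA3 it was 28.9 ± 1.16 TPM in Cadenza and 55.4 ± 2.50 TPM in idd5. The mean sum was thus 25.8 TPM higher in idd5 with water, where the means of IDD5-A1, IDD5-B1 and IDD5-D1 differed by 0.215, 26.5 and -0.89 TPM. With GA3 it was 26.5 TPM higher, where they differed by 0.37, 24.9 and 1.16 TPM. IDD5-A1 and IDD5-D1 together had 20.0 ± 0.77 TPM in idd5 and 20.6 ± 1.25 TPM in Cadenza with water, and 21.2 ± 1.30 TPM and 19.6 ± 1.22 TPM with GA3. The sum depends on the choice of members and is given as a description, with no test.

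The share of each homoeologue in the summed TPM does not change with the scaling of a library. In Cadenza the shares were close to an even split that leaned to IDD5-D1, and in idd5 IDD5-B1 took most of the sum. The share of IDD5-B1 in water-treated libraries was 31.4 ± 3.36% in Cadenza, 64.3 ± 0.55% in idd5 and 30.4 ± 2.42% in Rht-D1b (SD, n = 4). With GA3 it was 32.1 ± 1.63%, 61.7 ± 2.58% and 30.5 ± 0.89%. The spread within a group was thus small beside the difference of idd5 from the others.

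Shares of the other homoeologues were correspondingly lower in idd5. The share of IDD5-A1 was 30.1 ± 1.69% in Cadenza, 16.6 ± 0.61% in idd5 and 30.3 ± 1.09% in Rht-D1b with water (SD, n = 4). With GA3 it was 30.4 ± 2.30%, 16.6 ± 0.43% and 31.5 ± 1.54%. The share of IDD5-D1 was 38.5 ± 1.97%, 19.1 ± 0.81% and 39.3 ± 1.62% with water. It was 37.5 ± 1.06%, 21.7 ± 2.19% and 38.1 ± 0.94% with GA3. Since the shares of a library add up to 100%, the lower shares of IDD5-A1 and IDD5-D1 in idd5 restate the higher one of IDD5-B1 and are not separate changes in level.

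Over both treatments the mean share of IDD5-B1 was 63.0% in idd5 and 31.7% in Cadenza, a difference of 31.3 points. With the genotype labels permuted within each treatment, the exact two-sided permutation test gave p = 0.000408, the smallest of its 4900 arrangements, and p = 0.000612 after Benjamini-Hochberg adjustment over the 9 comparisons of shares between genotypes. Shares of IDD5-A1 and IDD5-D1 differed by -13.7 and -17.6 points between idd5 and Cadenza, with the same p. Between idd5 and Rht-D1b the differences were 32.6 points for IDD5-B1, -14.3 points for IDD5-A1 and -18.3 points for IDD5-D1, again with the same p. Between Rht-D1b and Cadenza they were -1.28 points for IDD5-B1, 0.63 points for IDD5-A1 and 0.65 points for IDD5-D1. The smallest p of these last comparisons was 0.273 in the exact permutation test, or 0.351 after adjustment.

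**Figure D2:**
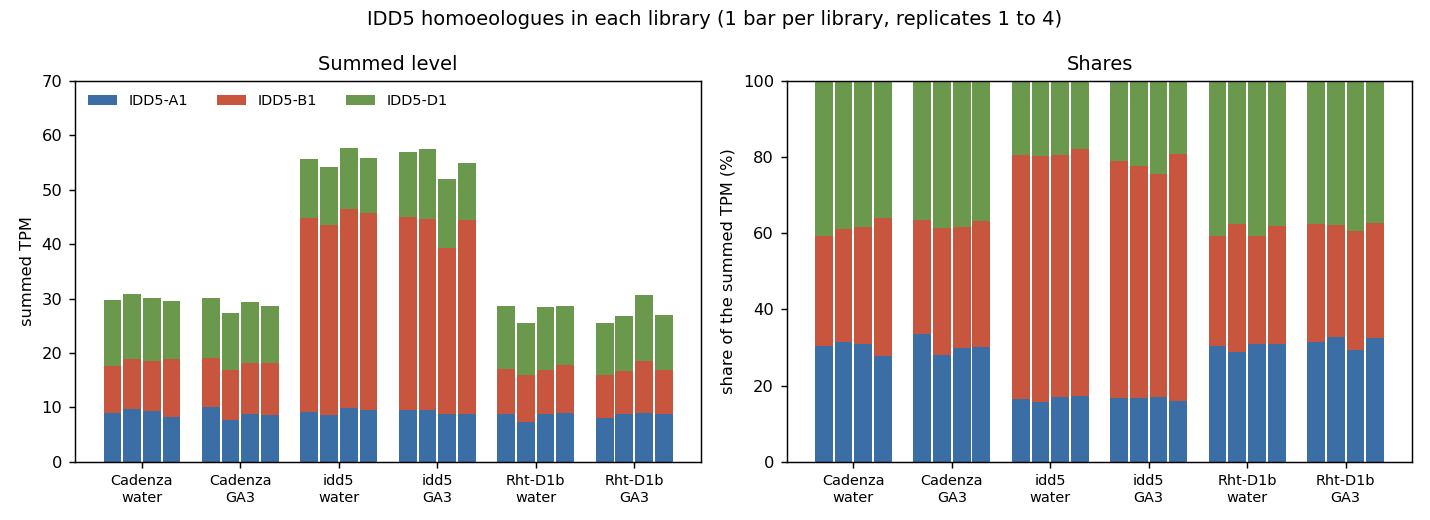
Summed TPM of the homoeologues (left) and the share of each in that sum in percent (right), with 1 bar for each library, by genotype and treatment in the order of replicates 1 to 4. Bars are divided into IDD5-A1 (blue), IDD5-B1 (red) and IDD5-D1 (green). In the 8 idd5 libraries the red part takes most of the bar, with a mean share of 63.0%. The blue and green parts there are about as tall in TPM as in the other genotypes.

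The balance between the homoeologues within a library was compared through log2 ratios of their TPM, with an exact two-sided sign-flip permutation test over the 8 libraries of each genotype and adjustment over the 9 ratios. IDD5-D1 exceeded IDD5-A1 in each of the 8 Cadenza libraries, by a mean log2 ratio of 0.33 (SD 0.10) or 1.26-fold, with an adjusted permutation p of 0.0117. The corresponding ratio was 0.29 (SD 0.14) in idd5 and 0.32 (SD 0.09) in Rht-D1b, each with IDD5-D1 higher in 8 of 8 libraries and the same adjusted permutation p. The lead of IDD5-D1 over IDD5-A1 was therefore seen in each genotype, with intact genes and with premature stop codons alike.

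IDD5-B1 and IDD5-A1 could not be separated in Cadenza, where the mean log2 ratio was 0.07 (SD 0.19) and IDD5-B1 was higher in 4 of 8 libraries (adjusted p = 0.422, exact permutation test). In Rht-D1b it was -0.02 (SD 0.13) and IDD5-B1 was higher in 2 of 8 (adjusted p = 0.625). In idd5 the ratio was 1.93 (SD 0.08), or 3.80-fold, in 8 of 8 libraries (adjusted p = 0.0117, exact permutation test). IDD5-D1 exceeded IDD5-B1 in 7 of 8 Cadenza libraries, by 0.26 (SD 0.16) on the log2 scale (adjusted p = 0.0201), and in 8 of 8 of Rht-D1b, by 0.35 (SD 0.12). In idd5 this ratio was -1.63 (SD 0.19), with IDD5-B1 higher in every library. Homoeologues are near-identical in sequence, and how reads that fit several of them were divided was decided by the quantification, so the levels of single homoeologues carry an uncertainty that replicates do not show.

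The Rht-D1b libraries gave the level of the homoeologues in a second semi-dwarf genotype. IDD5-B1 had 8.28, 8.61, 8.03 and 8.83 TPM with water and 7.96, 7.86, 9.57 and 8.11 TPM with GA3. IDD5-A1 had 8.75, 7.35, 8.81 and 8.90 TPM with water and 8.01, 8.74, 8.97 and 8.73 TPM with GA3. IDD5-D1 had 11.67, 9.63, 11.56 and 10.94 TPM with water and 9.58, 10.14, 12.06 and 10.05 TPM with GA3. For each homoeologue and treatment, these values overlapped with those of Cadenza.

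Between Rht-D1b and Cadenza, 0 of the 3 homoeologues were called with water, where 3.92% of all genes tested were called, and 0 with GA3, where 8.02% were. The number with an unadjusted limma p under 0.05 was also 0 in each, a level that 22.1% of all genes tested reached with water and 26.9% with GA3. The 6 log2 differences were below 0, from -0.15 for IDD5-B1 with water (95% interval -0.30 to 0.00, adjusted p = 0.228 from limma's test) to -0.02 for IDD5-A1 with GA3 (95% interval -0.19 to 0.14, adjusted p = 0.893). The median log2 difference over all genes tested was itself -0.07 with water and -0.04 with GA3. With median-ratio scaling in place of TPM as deposited, the differences with GA3 were 0.04 for IDD5-A1 and 0.01 for IDD5-D1, so their sign is not settled. The summed TPM was 27.8 ± 1.51 with water and 27.4 ± 2.19 with GA3 in Rht-D1b (SD, n = 4). Its mean over both treatments was 1.83 TPM below that of Cadenza, and 0.44 TPM below it with median-ratio scaling.

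Against Rht-D1b, as against Cadenza, IDD5-B1 was the one homoeologue called in idd5. IDD5-B1 was higher in idd5 by 2.03 on the log2 scale with water (limma, standard error 0.07, adjusted p = 1.34e-14) and by 1.97 with GA3 (standard error 0.07, adjusted p of 2.64e-14). The ratios of the means were 4.25 and 4.08, and the groups did not overlap. The share of all genes tested that were called was 0.455% with water and 0.727% with GA3, and of the 3 homoeologues 1 was called in each. IDD5-A1 differed by 0.13 with water (95% interval -0.04 to 0.30, adjusted p = 0.577) and 0.09 with GA3 (95% interval -0.08 to 0.25, adjusted p = 0.698). IDD5-D1 differed by -0.03 with water (95% interval -0.19 to 0.13, adjusted p = 0.928) and by 0.19 with GA3 (95% interval 0.03 to 0.35, adjusted p = 0.265). The comparisons of idd5 with Rht-D1b and with Cadenza share the idd5 libraries, and those of idd5 and of Rht-D1b with Cadenza share the Cadenza libraries, so they are not independent.

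The treatment with GA3 tested whether the levels of IDD5 transcripts differed 8 h after the hormone was given. Earlier times were not sampled. In none of the 9 combinations of homoeologue and genotype was a difference between GA3 and water called, and the values overlapped in each. Groups of 4 and 4 libraries that do not differ stand fully apart with a probability of only 0.0286, so overlap alone says little. In Cadenza the log2 differences of IDD5-A1, IDD5-B1 and IDD5-D1 were -0.04, -0.02 and -0.09, with 95% intervals that together reach from -0.25 to 0.13. In Cadenza 0.0965% of the genes tested were called with GA3.

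In idd5 the same differences were -0.01 for IDD5-A1, -0.07 for IDD5-B1 and 0.16 for IDD5-D1, of which the last had the widest departure from 0 (95% interval -0.01 to 0.32, limma, adjusted p = 0.766). For Rht-D1b they were 0.03, -0.01 and -0.06. Of all genes tested, 0% were called in idd5 and 0% in Rht-D1b, and in limma's test 4216 and 3705 genes had an unadjusted p under 0.05. In Cadenza 5546 genes, or 8.77%, reached that level. With the program DESeq, the authors reported more genes that differed with GA3 in every genotype than were called here. The shares called here therefore hold for this test only. Among the homoeologues, 0 had an unadjusted p under 0.05 with GA3 in any genotype.

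The response to GA3 was also compared between genotypes. The difference in response of IDD5-D1 between idd5 and Cadenza was 0.25 on the log2 scale (95% interval 0.02 to 0.48), with a limma p of 0.0375 before and 0.849 after adjustment. Of all genes tested, 0% were called in this comparison, with 3590 at an unadjusted p under 0.05, and 0% in that of Rht-D1b with Cadenza, with 3780. The other differences in response lay between -0.05 and 0.07. Shares of the homoeologues did not separate GA3 from water either. The widest gaps were in idd5, where the share of IDD5-B1 differed by -2.53 points and that of IDD5-D1 by 2.56 points between GA3 and water. Both had p = 0.114 in the exact two-sided permutation test, or 0.514 after adjustment over 9 comparisons, where 4 libraries against 4 cannot give a p below 0.0286. The libraries of GA3-treated idd5 include replicate 3, in which IDD5-B1 was at 30.48 TPM. Without it the share of IDD5-B1 differed by -1.504 points and that of IDD5-D1 by 1.665 points between GA3 and water.

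**Figure D3:**
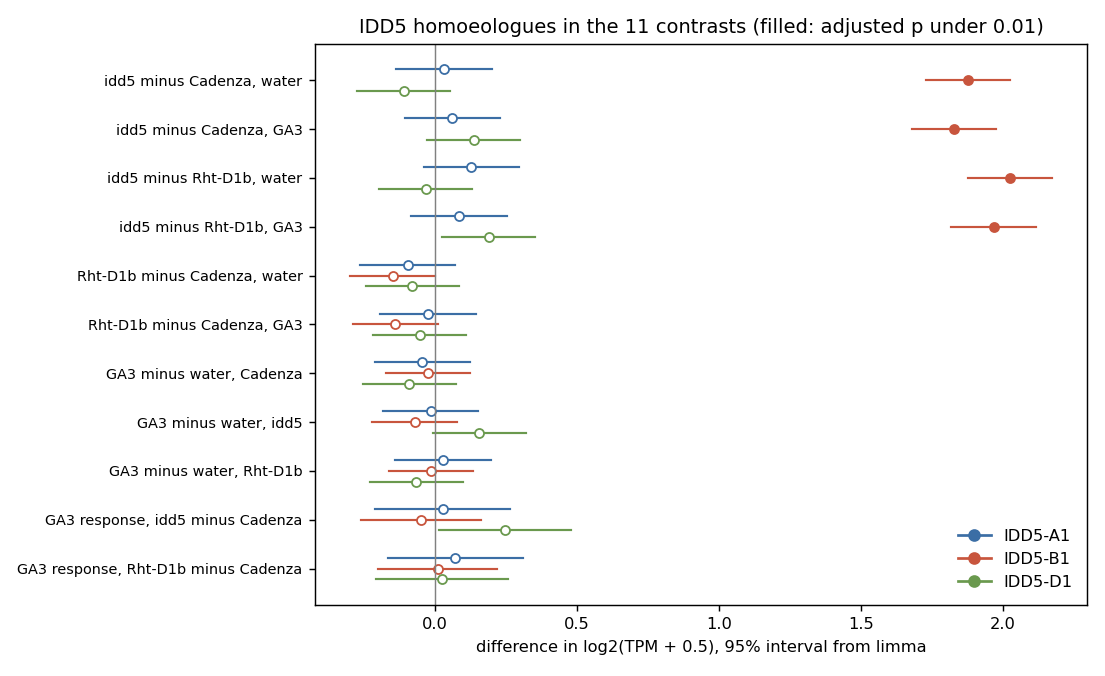
Differences of IDD5-A1, IDD5-B1 and IDD5-D1 on the log2(TPM + 0.5) scale in the 11 contrasts, with 95% intervals from limma. Filled points have an adjusted p under 0.01. The 4 filled points are IDD5-B1 in the contrasts of idd5 with Cadenza and with Rht-D1b, between 1.83 and 2.03, and all other points lie between -0.15 and 0.25.

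In order of the group means, IDD5-A1 ran from 9.28 TPM in water-treated idd5 to 8.45 TPM in water-treated Rht-D1b, and every pair of neighbours in that order overlapped. IDD5-D1 ran from 12.0 TPM in GA3-treated idd5 to 10.5 TPM in GA3-treated Rht-D1b, again with each pair of neighbours overlapping. For IDD5-B1 the groups of idd5, at 35.9 and 34.2 TPM, overlapped with each other and were apart from the next, water-treated Cadenza at 9.43 TPM. GA3-treated Cadenza, at 9.25 TPM, was also just apart from water-treated Rht-D1b, at 8.44 TPM, but these groups differ in treatment as well as genotype.

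The homoeologues were measured with little spread. The SD within groups on the log2(TPM + 0.5) scale was 0.10 for IDD5-A1, 0.09 for IDD5-B1 and 0.10 for IDD5-D1. The median over the 19970 tested genes with a mean of 5 to 20 TPM was 0.17, and 7.75%, 3.28% and 7.16% of these genes had a lower SD than IDD5-A1, IDD5-B1 and IDD5-D1. The mean TPM of IDD5-B1 over all libraries includes the high values of idd5.

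Pooled over the groups, IDD5-A1 and IDD5-D1 moved together from library to library and IDD5-B1 followed neither, though its pairs varied between genotypes. Each library was expressed as its deviation from the mean of its group. Over the 24 libraries the deviations of IDD5-A1 and IDD5-D1 had a Pearson r of 0.56 (permutation p = 0.00418 with deviations permuted within groups, 0.0125 after adjustment over the 3 pairs) and a Spearman rho of 0.57 (permutation p = 0.00693, adjusted 0.0208). Without the 2 libraries farthest from the median of IDD5-A1 the r was 0.47. Within the genotypes, over 8 libraries each, it was 0.61 in Cadenza, 0.28 in idd5 and 0.80 in Rht-D1b. Of all genes tested, 0.46% had deviations whose r with those of IDD5-A1 was at least as high as that of IDD5-D1, and 1.28% had an r with IDD5-D1 at least as high as that of IDD5-A1.

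Values of 1 library share its scaling, so the correlation was computed again after median-ratio scaling, an alternative chosen after seeing the data, where r was 0.67. The same scaling turned the sign of both pairs with IDD5-B1, to 0.11 for IDD5-A1 and IDD5-B1 and 0.14 for IDD5-B1 and IDD5-D1. With TPM as deposited, for IDD5-A1 and IDD5-B1 the r was -0.05 (permutation p = 0.831, adjusted 0.831) with a rho of 0.04 (permutation p = 0.872, adjusted 0.872), and r was -0.04 without the 2 farthest libraries. Within genotypes it was -0.45 in Cadenza, 0.50 in idd5 and 0.15 in Rht-D1b. For IDD5-B1 and IDD5-D1 the r was -0.07 (permutation p = 0.801, adjusted 0.831) with a rho of -0.11 (permutation p = 0.653, adjusted 0.872), and r was -0.31 without the 2 farthest libraries. Within genotypes it was -0.82 in Cadenza, -0.40 in idd5 and 0.50 in Rht-D1b. The pairs that involve IDD5-B1 thus differed in sign between genotypes, a difference that was not tested. How reads were divided among near-identical copies could move such values and was not tested.

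**Figure D4:**
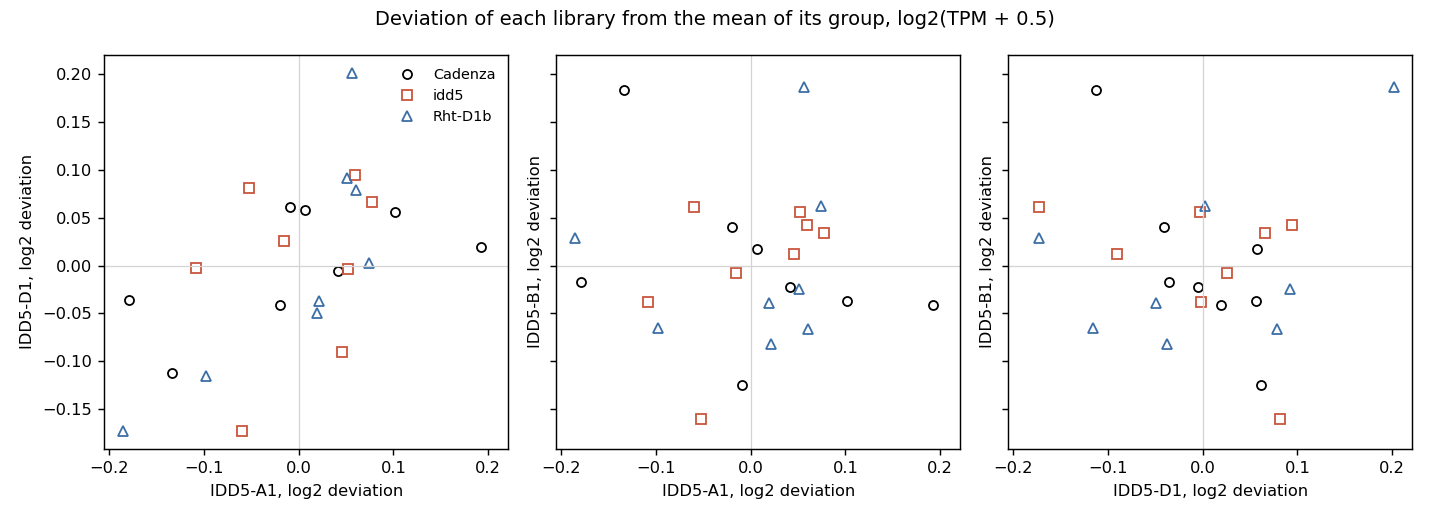
Deviation of each library from the mean of its group on the log2(TPM + 0.5) scale, for each pair of homoeologues. Circles are Cadenza, squares idd5 and triangles Rht-D1b, with 8 libraries each. The points of IDD5-A1 against IDD5-D1 rise from lower left to upper right, with an r of 0.56 over 24 libraries, and those of the pairs with IDD5-B1 show no common slope.

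The genes whose pattern over the 24 libraries was most like that of each homoeologue were found by the Pearson r of log2(TPM + 0.5), as a description. For IDD5-B1 they were TraesCS5B02G455100 (r = 0.986) and TraesCS5B02G455200 (r = 0.981), which have adjacent identifiers on chromosome 5B. In the 8 idd5 libraries TraesCS5B02G455100 had a lowest value of 7.18, a median of 11.5 and a highest value of 15.7 TPM, and at most 0.09 TPM in Cadenza and 0.11 TPM in Rht-D1b. TraesCS5B02G455200 had a lowest value of 3.59, a median of 9.30 and a highest value of 14.7 TPM in idd5, and at most 0.03 TPM in Cadenza and 0.12 TPM in Rht-D1b. They thus shared the step between idd5 and the other genotypes, but from a base near 0, whereas IDD5-B1 was expressed in every library. The files do not pair these identifiers with names.

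For IDD5-A1 the most alike were TraesCS7A02G071800 (r = 0.765) and TraesCS6D02G102200 (r = 0.734), and for IDD5-D1 they were TraesCS5D02G059200 (r = 0.785) and TraesCS1D02G216400 (r = 0.724). Being picked as the highest among all genes tested raises these r values, and no link between the genes was tested. TraesCS7A02G071800 varied widely between libraries of 1 genotype, from 0.58 to 11.56 TPM in Cadenza, from 2.37 to 13.74 TPM in idd5 and from 0 to 9.39 TPM in Rht-D1b, and IDD5-A1 itself varied far less. TraesCS5D02G059200 was low, with 0.29 to 0.97 TPM in Cadenza, 0.15 to 1.16 TPM in idd5 and 0.07 to 0.93 TPM in Rht-D1b. The r of IDD5-A1 with IDD5-D1 was 0.529, which put IDD5-D1 in place 154 for IDD5-A1 and IDD5-A1 in place 213 for IDD5-D1. IDD5-B1 stood in place 1809 for IDD5-A1, with an r of 0.373.

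The genes beside IDD5-B1 did not share its step. Among the 5 tested genes on each side in the order of the identifiers, the log2 differences between idd5 and Cadenza ran from -0.25 to 0.56 with water (median -0.04) and from -0.39 to 0.46 with GA3 (median -0.22). The nearest were TraesCS2B02G218700, with 0.48 and 0.07, and TraesCS2B02G219000, with -0.23 and -0.39, and neither was called by limma with either treatment. Of the 10 neighbours, 1 was called with water and 0 with GA3 in limma's test. An unadjusted limma p under 0.05 was reached by 4 with water and 7 with GA3, against 23% and 28% of all genes tested. Around IDD5-A1, 1 of 10 was called with water and 2 with GA3. Around IDD5-D1, 1 of 10 was called with each treatment. Of all genes tested, 4.73% were called between idd5 and Cadenza with water and 9.41% with GA3.

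The RHT1 homoeologues encode the DELLA proteins that IDD5 binds, and they were taken as the list of other genes of the pathway. Per length they were more abundant than IDD5. In water-treated Cadenza the means were 84.1 TPM for RHT-A1 (TraesCS4A02G271000), 80.2 TPM for RHT-B1 (TraesCS4B02G043100) and 65.7 TPM for RHT-D1 (TraesCS4D02G040400), against 9.06 to 11.6 TPM for the IDD5 homoeologues. Between idd5 and Cadenza, 1 of 3 RHT1 genes was called lower in idd5 with water and 3 of 3 with GA3. Of all genes tested, 4.73% were called in that comparison with water and 9.41% with GA3. With GA3 the log2 difference was -0.57 for RHT-A1 in limma's test, at an adjusted p of 1.14e-05. For RHT-B1 it was -0.37, at an adjusted p of 0.00129, and for RHT-D1 it was -0.69, at 5.85e-07. With water the called gene was RHT-A1 at -0.36 (adjusted p = 0.00303 from limma's test). This call was lost after median-ratio scaling (adjusted p = 0.0126), without Cadenza replicate 1 (0.0138) and without idd5 replicate 4 (0.0129). RHT-B1 at -0.28 (limma, adjusted p = 0.0223) and RHT-D1 at -0.29 (0.0112) were also lower with water but not called. RHT-D1 was called there with a filter at 2 TPM (limma, adjusted p = 0.00916) and with the replicate block (0.00559), but not with median-ratio scaling (0.0466). The call of RHT-B1 with GA3 was lost when only the groups compared were fitted (adjusted p = 0.0107).

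Against Rht-D1b, 1 of 3 RHT1 genes was called lower in idd5 with each treatment. Of all genes tested, 0.455% were called there with water and 0.727% with GA3. The called gene was RHT-D1, the gene that carries the Rht-D1b allele, at -0.96 with water and -1.01 with GA3 (limma, adjusted p = 1.34e-08 and 4.26e-09). Between Rht-D1b and Cadenza RHT-D1 was higher by 0.67 with water (limma, adjusted p = 2.35e-06). With GA3 it was higher by 0.31 (adjusted p = 0.00421) while RHT-A1 was lower by a log2 difference of -0.37 (adjusted p = 0.00149), and both calls were lost when only the groups compared were fitted (adjusted p = 0.0361 and 0.0180). That of RHT-D1 was also lost without the mean-variance trend (adjusted p = 0.0113) and without replicate 1 or 2 of Cadenza (0.0155 and 0.0185) or replicate 1 or 3 of Rht-D1b (0.0195 and 0.0184). In these 2 comparisons of Rht-D1b with Cadenza, 3.92% of all genes tested were called with water and 8.02% with GA3. None of the IDD5 homoeologues was called in them, as given above. With GA3 within a genotype, 0 of 3 RHT1 genes were called in each. Of all genes tested, 0.0965% were called with GA3 in Cadenza, 0% in idd5 and 0% in Rht-D1b. The log2 differences of RHT-A1, RHT-B1 and RHT-D1 in Cadenza were 0.32, 0.29 and 0.41, and the adjusted p of the last lay just above the threshold in limma's test. RHT-D1 was called there with a pseudocount of 0.1 (adjusted p = 0.00974), a filter at 2 TPM (0.00868) and median-ratio scaling (0.00725).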

How the data were processed

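Leaf sheath RNA-seq of Cadenza, idd5 and Rht-D1b seedlings was used, with groups and replicate numbers from the sample labels. The authors trimmed the paired-end reads with Trimmomatic (version 0.39), quantified them with kallisto against IWGSC gene models and deposited TPM, 1 column for each library. The methods and the labels name different releases of the gene models, and identifiers are printed as deposited. Read depth is unknown because TPM does not keep it, and precision rests on the 4 replicates. Between 56583 and 58700 genes per library reached 0.5 TPM. Markers of the leaf sheath could not be checked, because the files pair no names with identifiers. The wheat gene table at hand shared no identifier with the files, so no sequences or coordinates are printed.

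Genes that reached 0.5 TPM in 4 or more of the 24 libraries, 63241 in all, were fitted as log2(TPM + 0.5) by limma (version 3.58.1; R version 4.3.3). The model had 1 mean per group, and its empirical Bayes step used a trend of the variance on the mean. P-values were adjusted by Benjamini-Hochberg over all genes tested. A gene was called at an adjusted p under 0.01 in any of 11 contrasts, of which 6 were between genotypes, 3 of GA3 within a genotype and 2 of responses. Differences on this scale understate changes of genes with low TPM. Shares and ratios were tested by exact permutation over libraries at an adjusted p of 0.05, in Python (version 3.11.15), and deviations with 100000 resamples within groups. A test of the summed TPM was planned and is not given, since the sum is a score over the chosen members. The limma fit was tested on simulated data in the contrast of idd5 with Cadenza in water. The exact permutation and sign-flip tests were checked on small sets of values with known answers.

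Named genes were the members, the RHT1 homoeologues, the 2 tested genes most correlated with each member over 24 libraries, and the nearest tested gene on each side by identifier, with counts for the 5 on each side. Members and lists were chosen with earlier results of these data known. The pseudocount was also set to 0.1 and 1, and the filter was dropped or raised to 2 TPM. Further alternatives were median-ratio scaling, fits restricted to the groups compared, no variance trend, a threshold of 0.05, the replicate number as a block, log2 ratios in place of shares, each treatment alone and each library left out in turn.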

Additional observations from a re-analysis of the deposited data

Results flagged for a closer look

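Values of IDD5 in each group of 4 were compared with Dixon's test, which asks whether the highest or lowest library lies far from the nearest of the others. Of 42 groups of values, 5 passed its limit, where chance alone gives about 1 in 20, and the values of 1 library are not independent of each other. IDD5-B1 was 30.48 TPM in GA3-treated idd5 replicate 3, against 35.15 TPM in the nearest replicate. IDD5-B1 was 9.57 TPM in GA3-treated Rht-D1b replicate 3, against 8.11 TPM. IDD5-A1 was 7.35 TPM in water-treated Rht-D1b replicate 2, against 8.75 TPM, and the summed TPM of that library was 25.59, against 28.4. The share of IDD5-D1 was 17.9% in water-treated idd5 replicate 4, against 19.4%. The 4 differences of IDD5-B1 between idd5 and Cadenza or Rht-D1b kept their calls without any single library.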

How the results depend on the processing

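The 4 differences of IDD5-B1 between idd5 and Cadenza or Rht-D1b were called in all 68 alternatives run for them, from 1.78 to 2.08 on the log2 scale, with a highest adjusted p of 7.45e-06 in limma. Shares of idd5 differed from those of Cadenza and Rht-D1b in each alternative run for them. With the replicate block, 76 of 78 results were unchanged. Differences in summed TPM are among the 78 and, having no test, were judged by size alone. The others were RHT-D1 between idd5 and Cadenza with water and RHT-D1 with GA3 in Cadenza, which were then called (limma, adjusted p = 0.00559 and 0.00574). With the block the log2 difference of IDD5-B1 between idd5 and Cadenza with water was 1.88. Same-numbered libraries had deviations with an r from -0.16 to 0.16 over 60 pairs. In 19 of the 60 the same-numbered library of the other group was the best match among its 4 libraries. Deviations centred within groups of 4 cannot decide whether the numbers pair samples. Signs of uncalled differences near 0 turned. With median-ratio scaling they were 0.002584 for RHT-B1 with water and 0.036 and 0.0072 for IDD5-A1 and IDD5-D1 with GA3 between Rht-D1b and Cadenza, 0.000673 for IDD5-B1 with GA3 in Cadenza, 0.013 for IDD5-A1 with GA3 in idd5 and -0.00146 for the response of IDD5-B1 between Rht-D1b and Cadenza. With the same scaling, an alternative chosen after seeing the data, the r of deviations was 0.11 for IDD5-A1 and IDD5-B1 and 0.137 for IDD5-B1 and IDD5-D1, against values just below 0.

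Log2 ratios within 1 treatment rest on 4 libraries, which cannot reach the threshold. With water and with GA3 the ratio of IDD5-D1 to IDD5-A1 was 0.35 and 0.31 in Cadenza, 0.20 and 0.38 in idd5, and 0.37 and 0.28 in Rht-D1b. That of IDD5-D1 to IDD5-B1 was 0.30 and 0.23 in Cadenza, -1.75 and -1.51 in idd5, and 0.37 and 0.32 in Rht-D1b. That of IDD5-B1 to IDD5-A1 was 1.95 and 1.90 in idd5 and 0.00087 with water in Rht-D1b.

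Each library left out in turn gave, for uncalled log2 differences between GA3 and water, -0.108 to 0.0159 for IDD5-A1 and -0.0649 to 0.0381 for IDD5-B1 in Cadenza, -0.0509 to 0.0108 for IDD5-A1 and -0.0348 to 0.0762 for RHT-D1 in idd5, and -0.0336 to 0.0608 for IDD5-A1 and -0.0756 to 0.0139 for IDD5-B1 in Rht-D1b. Between genotypes IDD5-A1 ran from -0.0115 to 0.0689 for idd5 and Cadenza with water and from -0.0837 to 0.04004 for Rht-D1b and Cadenza with GA3. Responses minus that of Cadenza ran from -0.0309 to 0.0928 for IDD5-A1 and -0.11 to 0.00523 for IDD5-B1 in idd5, and from -0.0523 to 0.0515 for IDD5-B1 and -0.0414 to 0.0644 for IDD5-D1 in Rht-D1b. Shares moved with GA3 by -0.15 to 2.31 points for IDD5-B1 and -0.757 to 1.08 points for IDD5-A1 in Cadenza, -0.293 to 0.175 points for IDD5-A1 in idd5 and -0.603 to 1.19 points for IDD5-B1 in Rht-D1b. The cause of these turns of sign was not tested.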
